A study of Rattus norvegicus with 9 samples.

Results

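Interferons are secreted proteins that bind receptors on the cell surface and activate kinases of the JAK family, Jak1 and Jak2 among them. These phosphorylate STAT proteins, which enter the nucleus alone or with the factor Irf9 and switch on antiviral genes and the genes that load peptides onto class I MHC molecules. In nerve, Schwann cells carry these receptors, keep low levels of MHC molecules at rest and raise them under inflammatory cytokines. The 40 genes described here were chosen by name to cover that route: 3 cytoplasmic nucleic acid sensors, 4 receptors and kinases, 7 STAT and IRF factors, 3 feedback inhibitors, 15 interferon-induced effectors and 8 genes of antigen presentation. All 40 had a probe set annotated to exactly 1 gene, among 14213 genes measured. The rule that names the 40 uses no measured value, but the genes were chosen with earlier results of these data known.

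The cells were primary Schwann cells of rat sciatic nerve, in which loss of the Ras inhibitor neurofibromin, the product of Nf1, was modelled by RNA interference. Cultures were transfected with scrambled oligonucleotides (Control RNAi), with oligonucleotides against NF1 (NF1 RNAi), or with the latter in the presence of U0126, an inhibitor of the kinase MEK that acts below Ras (NF1 RNAi + U0126). RNA was taken 48 hours after transfection from 3 independent biological replicates of each group and hybridised to 9 Affymetrix arrays. All 9 cultures had therefore received oligonucleotides, which are short double-stranded RNAs of a kind that can itself engage the interferon route, and neither untransfected cultures nor Control RNAi cultures with U0126 were analysed here.

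Nf1 and Dusp6 were read first, as a check of the labels. Nf1, on a log2 scale of the deposited intensity plus 1, stood at 6.65, 6.59 and 6.15 in Control RNAi, at 5.39, 5.41 and 5.44 in NF1 RNAi and at 5.44, 5.72 and 5.39 with U0126, so that the knockdown groups lay below every control array. Dusp6, a phosphatase gene that follows ERK activity, was at 10.62, 9.22 and 8.88 in Control RNAi, at 10.08, 9.79 and 9.30 in NF1 RNAi and at 6.24, 6.67 and 6.38 with U0126, where it fell by 3.29 ± 0.40 against NF1 RNAi. Errors of differences are standard errors from a limma model over all 9 arrays, and p-values are Benjamini-Hochberg adjusted over all genes. Sox10, the transcription factor that defines the Schwann lineage, was at 11.06 to 11.47 in all 9 arrays. Of 11 Schwann cell markers measured, 2 rose (18.2%) and 3 fell (27.3%) with NF1 RNAi, against 13.0% and 13.3% of all genes. With U0126 added none rose and 4 fell (36.4%), against 6.71% and 7.02% of all genes. Between the inhibitor group and Control RNAi 1 rose (9.09%) and 5 fell (45.5%), against 17.9% and 17.6% of all genes. Sox10, lower by 0.22, was among those 5. With NF1 RNAi the mean of the myelin gene Pmp22 went from 12.83 to 10.86 and that of S100b from 13.24 to 14.04. The part of these shifts in the other results was not tested. Medians over probe sets ran from 95.0 to 97.1 intensity units, and Control RNAi replicate 1 differed most from its group (standard deviation of the differences 0.32 and 0.37, against 0.14 between the other control arrays). In whole cultures, fewer cells of a type and less RNA per cell cannot be told apart.

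Probe sets differ in brightness, so levels are compared between groups for 1 gene and never between genes. Of the 40 genes, 20 stood at a log2 level of 6 or more in all 9 arrays and 15 stood below 6 in all of them, a level under which 41.5% to 42.0% of the probe sets of an array lay. Among all genes the shares were 66.0% above in every array and 26.1% below in every array. Dim signal was seen for the sensors Ifih1 and Dhx58, for the antiviral genes Mx1, Mx2, Rsad2, Oas1a, Ifit1 and Ifit3, for the chemokine gene Cxcl10, for the class II chaperone Cd74 and for the immunoproteasome genes Psmb8 and Psmb9, among others. Whether these transcripts were present could not be judged, since no detection calls were used.

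**Figure D1:**
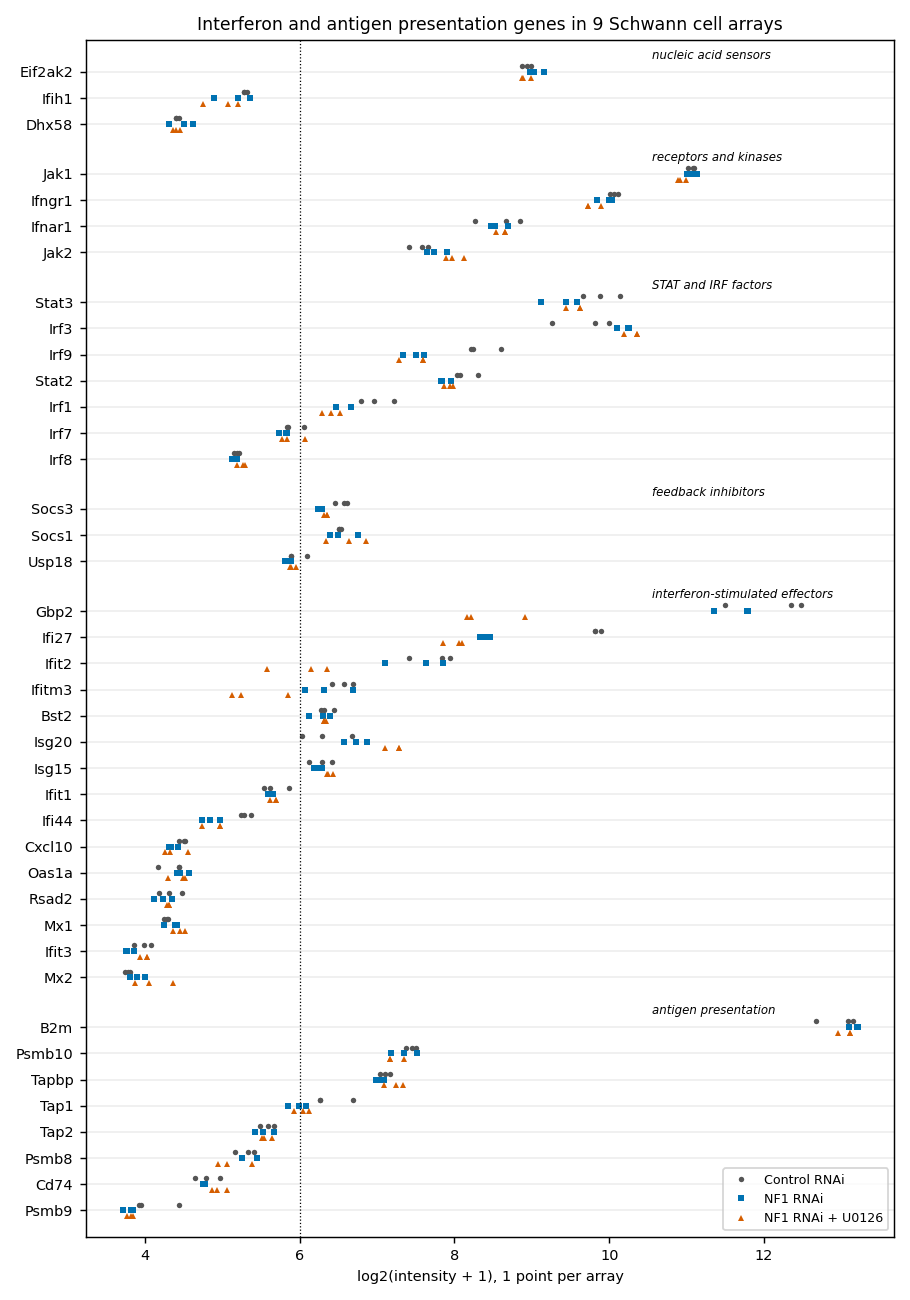
Level of each of the 40 genes in each of the 9 arrays, on the log2(intensity + 1) scale, grouped by role; points are single arrays and colours are the 3 groups. Gbp2 and Ifit2 stand apart in the 3 arrays with U0126, and Ifi27 and Irf9 stand apart in the 3 control arrays, while most other genes show no separation of this size.

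The 250 bases before the transcription start are shown for Gbp2, Ifitm3, Ifi27, Irf9 and Tap1, which carry much of what follows, to mark the elements through which interferon acts. The interferon-stimulated response element binds STAT and IRF complexes, and was searched by its core, GAAA followed after any 2 bases by GAAA, or on the other strand TTTC followed after any 2 bases by TTTC. The gamma-activated site binds STAT dimers, and was searched by its palindromic core TTCNNNGAA. Capitals mark the matches, and the letters run 5′ to 3′ toward the gene.
Gbp2: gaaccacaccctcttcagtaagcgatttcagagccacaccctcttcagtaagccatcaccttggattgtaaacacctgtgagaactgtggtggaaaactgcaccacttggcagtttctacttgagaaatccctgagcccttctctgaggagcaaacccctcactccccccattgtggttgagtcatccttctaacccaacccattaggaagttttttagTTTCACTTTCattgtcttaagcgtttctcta
Ifitm3: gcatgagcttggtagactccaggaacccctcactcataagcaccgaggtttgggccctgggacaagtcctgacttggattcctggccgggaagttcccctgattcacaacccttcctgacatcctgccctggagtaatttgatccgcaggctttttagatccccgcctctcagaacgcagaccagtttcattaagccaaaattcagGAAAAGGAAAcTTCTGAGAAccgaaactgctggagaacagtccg
Ifi27: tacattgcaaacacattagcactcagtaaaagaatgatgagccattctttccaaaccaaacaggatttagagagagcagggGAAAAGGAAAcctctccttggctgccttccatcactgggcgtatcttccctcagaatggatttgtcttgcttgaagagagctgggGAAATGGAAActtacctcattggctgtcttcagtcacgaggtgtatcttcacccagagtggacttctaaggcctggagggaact
Irf9: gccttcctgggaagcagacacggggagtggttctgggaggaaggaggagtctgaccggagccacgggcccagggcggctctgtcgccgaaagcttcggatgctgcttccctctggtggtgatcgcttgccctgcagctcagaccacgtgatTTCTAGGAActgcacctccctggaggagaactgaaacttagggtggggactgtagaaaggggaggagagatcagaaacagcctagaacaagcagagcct
Tap1: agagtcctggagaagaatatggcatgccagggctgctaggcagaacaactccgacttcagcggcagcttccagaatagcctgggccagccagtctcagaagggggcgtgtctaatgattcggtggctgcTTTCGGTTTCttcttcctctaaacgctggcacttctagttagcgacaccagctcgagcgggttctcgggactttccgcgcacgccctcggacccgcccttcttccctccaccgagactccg
The sequences are from RefSeq on assembly GRCr8. The window of Gbp2 is chr2:234005477-234005726 on the plus strand, that of Ifitm3 chr1:205541759-205542008 on the minus strand, that of Ifi27 chr6:128355062-128355311 on the plus strand, that of Irf9 chr15:33065586-33065835 on the plus strand and that of Tap1 chr20:4668544-4668793 on the minus strand. In Gbp2 the response element TTTCACTTTC lay 31 to 22 bases before the start. Ifitm3 held GAAAAGGAAA from 44 to 35 bases before it and the gamma-activated core TTCTGAGAA from 33 to 25. Ifi27 held a pair of response elements, GAAAAGGAAA from 169 to 160 bases and GAAATGGAAA from 84 to 75 bases before the start. The Irf9 window held no response element core and 1 gamma-activated core, TTCTAGGAA, from 99 to 91 bases. Tap1 held TTTCGGTTTC from 121 to 112 bases, and its window shares 44 bases with that of Psmb9, its neighbour on the opposite strand.

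A promoter window was given for 33 of the 40 genes, and those of Dhx58, Jak1, Usp18, Ifit1, Ifit2, Isg15 and Mx2 were not used here. The response element core was in 19 of the 33 windows (57.6%), against 3.41% of all 33469 promoter windows of the same length. The gamma-activated core was in 8 of 33 (24.2%), against 7.67% of all. A response element core stood before 6 of the 14 genes with a window that passed the threshold in any comparison, and before 13 of the 19 that passed in none. A gamma-activated core stood before 3 of those 14 and 5 of those 19. These matches are letters in a window, not measured sites.

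In NF1 RNAi against Control RNAi, 8 of the 40 genes fell (20.0%) and 1 rose (2.5%) at an adjusted p under 0.05, while 13.3% of all genes measured fell and 13.0% rose, 26.3% together. The genes that fell were Ifi27, Irf9, Stat3, Ifi44, Tap1, Irf1, Socs3 and Stat2, and the gene that rose was Irf3. The median fold change of the 40 was −0.08 on the log2 scale against 0.02 over all genes. Counted without a test, the groups did not overlap with NF1 RNAi lower in 10 of the 40 and higher in 2, against 20.0% and 21.2% of all genes, 41.2% together. The count of falls was 4 without NF1 RNAi replicate 1 and 5 without replicate 2 or 3 of that group, and 7 without Control RNAi replicate 1, where 2 rose.

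With U0126 added to NF1 RNAi, 4 of the 40 fell and none rose, against 7.02% and 6.71% of all genes, 13.7% together. The 4 were Gbp2, Ifit2, Ifitm3 and Ifi27, all effectors. Of the 40, 9 had an unadjusted p under 0.05 in limma, and the median fold change was 0.05 against 0.02 over all genes. The groups did not overlap in 5 genes each way, against 16.1% of all genes lower and 17.8% higher, 33.9% together. Leaving out single arrays gave 3 or 4 falls and at most 1 rise, that of Isg20.

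NF1 RNAi with U0126 against Control RNAi shares its arrays with both other comparisons and repeats part of each. There 10 of the 40 fell (25.0%) and 3 rose (7.5%), against 17.6% and 17.9% of all genes, 35.5% together. The groups did not overlap in 16 genes downward and 5 upward, against 21.7% and 25.5% of all genes, 47.2% together. Falls were called for Gbp2, Ifi27, Ifit2, Ifitm3, Irf9, Irf1, Ifi44, Tap1, Ifngr1 and Socs3, and rises for Isg20, Irf3 and Jak2. In all, 15 of the 40 passed in at least 1 comparison and 25 in none. Over all genes that share was not counted, and it is at least the 35.5% called in this comparison.

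**Figure D2:**
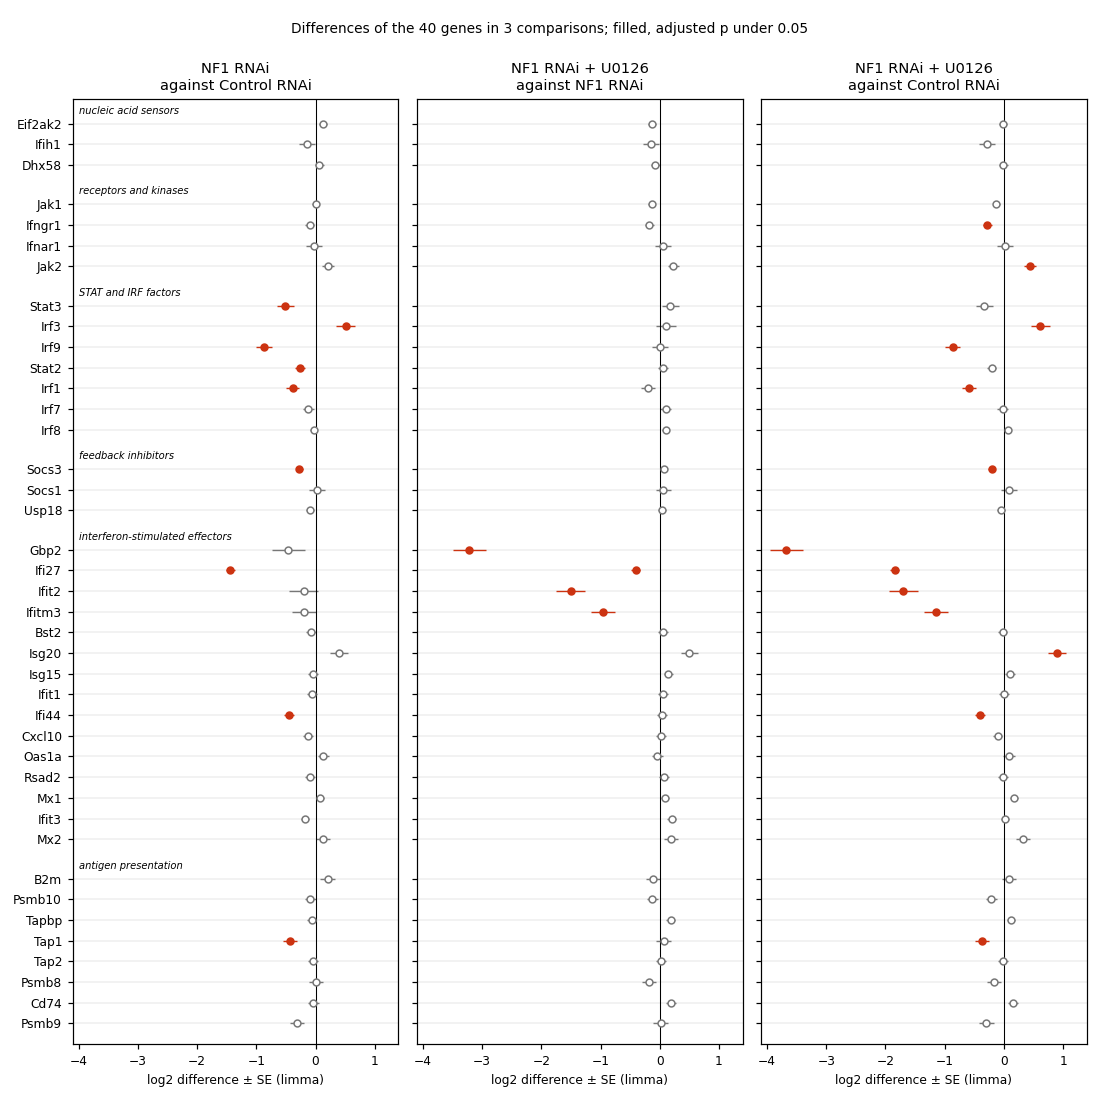
Log2 fold change of each of the 40 genes in the 3 comparisons, with bars for the standard error of the limma fit, 1 panel per comparison, and filled points for an adjusted p under 0.05. Gbp2 lies farthest from 0 in both comparisons with U0126, and most genes lie within 0.5 of 0 in all 3 panels.

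Among the effectors, Gbp2, a guanylate-binding GTPase induced by interferon gamma, moved most. Its log2 level was 11.49, 12.47 and 12.34 in Control RNAi, 11.36, 11.80 and 11.78 in NF1 RNAi, and 8.21, 8.92 and 8.16 with U0126. The 3 inhibitor arrays lay far below the other 6, which overlapped. In intensity units the group means were 4591 ± 1498, 3232 ± 526 and 354 ± 111 (SD, n = 3 each). U0126 lowered it by a log2 difference of −3.22 ± 0.28 against NF1 RNAi (adjusted p = 0.00024), to 10.8% of that level. The difference between NF1 RNAi and Control RNAi was −0.46, with a 95% interval from −1.10 to 0.18 (adjusted p = 0.287), and it was −0.76 without Control RNAi replicate 1, where it passed (adjusted p = 0.0393).

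Ifit2 encodes a tetratricopeptide protein that blocks translation of viral RNA. It was at 7.41, 7.94 and 7.84 in Control RNAi, at 7.11, 7.85 and 7.63 in NF1 RNAi and at 5.58, 6.15 and 6.35 with U0126. As for Gbp2, the inhibitor arrays lay below all others and the first 2 groups overlapped. Ifit2 fell by 1.50 ± 0.24 against NF1 RNAi (adjusted p = 0.00434), and its second probe set by 1.13 (adjusted p = 0.0152). Its family members Ifit1 and Ifit3, both dim in all arrays, passed in no comparison and ran from 5.53 to 5.86 and from 3.75 to 4.08.

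Ifitm3, a membrane protein that hinders the fusion of enveloped viruses, was at 6.69, 6.57 and 6.42 in Control RNAi, at 6.69, 6.32 and 6.07 in NF1 RNAi and at 5.85, 5.25 and 5.13 with U0126. Again the inhibitor arrays were the lowest and the other groups overlapped. It fell by 0.95 ± 0.20 against NF1 RNAi (adjusted p = 0.0157) and by 1.15 ± 0.20 against Control RNAi (adjusted p = 0.00225). The first of these calls was lost without NF1 RNAi replicate 2, or without replicate 2 or 3 of the inhibitor group, with adjusted p up to 0.0647. Its probe set is of a kind that reads several transcripts of a gene, and the neighbouring Ifitm2 and Ifitm1 are close relatives.

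Ifi27, a small mitochondrial protein induced by type I interferon, showed the clearest drop with NF1 RNAi. Control RNAi arrays stood at 9.89, 9.82 and 9.81, NF1 RNAi arrays at 8.33, 8.46 and 8.41 and inhibitor arrays at 7.85, 8.10 and 8.06. The 3 groups did not overlap, and each was lower than the one before. The fall was 1.44 ± 0.08 with NF1 RNAi (adjusted p = 1.57e-05), a further 0.40 ± 0.08 with U0126 (adjusted p = 0.00915) and 1.84 ± 0.08 in all (adjusted p = 1.54e-06). These calls held when any single array was left out.

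Ifi44 was dim throughout, at 5.28, 5.37 and 5.24 in Control RNAi, at 4.74, 4.84 and 4.97 in NF1 RNAi and at 4.74, 4.97 and 4.97 with U0126. The control arrays were the highest, and both knockdown groups overlapped below them. With NF1 RNAi it fell by 0.45 ± 0.09 (adjusted p = 0.00504), and it lay 0.40 below Control RNAi with U0126 (adjusted p = 0.0057).

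Isg20, an exonuclease that degrades viral RNA, moved the other way. It was at 6.67, 6.29 and 6.04 in Control RNAi, at 6.87, 6.72 and 6.58 in NF1 RNAi and at 7.11, 7.28 and 7.28 with U0126. The inhibitor arrays were the highest, and only Control RNAi replicate 1 overlapped with the NF1 RNAi arrays. Isg20 rose by 0.89 ± 0.15 between Control RNAi and NF1 RNAi with U0126 (adjusted p = 0.00162). The step with U0126 was 0.50 with an adjusted p of 0.0579, which became 0.0389 with the replicate number as a block and 0.00977 without Control RNAi replicate 1. The step with NF1 RNAi was 0.39 (adjusted p = 0.0877, and 0.00673 without that array).

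The other 9 effectors passed in no comparison. Isg15, the ubiquitin-like protein that marks an interferon response, ran from 6.13 to 6.43 over the 9 arrays, and Bst2, which tethers budding virus to the cell, from 6.12 to 6.45. The GTPase genes Mx1 and Mx2 ran from 4.24 to 4.52 and from 3.74 to 4.37. Between NF1 RNAi with U0126 and Control RNAi, Mx2 passed with the replicate block (difference 0.32, adjusted p = 0.0416), with median centring (adjusted p = 0.0463) and without replicate 1 of all groups (adjusted p = 0.0195). The second Mx2 probe set, dim at a mean of 3.87, moved by −0.02 in that comparison (adjusted p = 0.846). Oas1a, an RNA-activated synthetase, ran from 4.16 to 4.57, Rsad2 from 4.12 to 4.48 and Cxcl10 from 4.26 to 4.56. All of these but Isg15 and Bst2 were dim in every array.

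Of the 7 STAT and IRF factors, 4 fell and 1 rose with NF1 RNAi (13.3% and 13.0% of all genes), and none passed with U0126 added (13.7% of all genes), where none had an unadjusted p under 0.05 in limma. Irf9, the DNA-binding partner of Stat2 at the response element, was at 8.22, 8.24 and 8.60 in Control RNAi, at 7.33, 7.51 and 7.61 in NF1 RNAi and at 7.29, 7.59 and 7.59 with U0126. Every knockdown array lay below every control array, and the pair of knockdown groups overlapped. Its fall under NF1 RNAi was 0.87 ± 0.13 (adjusted p = 0.00143), and it lay 0.86 below Control RNAi with U0126 (adjusted p = 0.000864). The difference that U0126 made was 0.01, with a 95% interval from −0.29 to 0.30. A second Irf9 probe set moved by −0.54 with NF1 RNAi and missed the threshold (adjusted p = 0.0561).

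Stat3, the transducer of the gp130 cytokines, was at 9.67, 9.88 and 10.13 in Control RNAi, at 9.12, 9.44 and 9.58 in NF1 RNAi and at 9.62, 9.62 and 9.44 with U0126. All NF1 RNAi arrays lay below all control arrays, and the inhibitor arrays overlapped with the NF1 RNAi arrays. It fell by 0.51 ± 0.14 with NF1 RNAi (adjusted p = 0.0272). The call was lost without Control RNAi replicate 2 or 3 or without NF1 RNAi replicate 1 or 2, with adjusted p up to 0.0845, and the second probe set moved by −0.39 (adjusted p = 0.0548). With U0126 the difference from Control RNAi was −0.34 and missed the threshold (adjusted p = 0.101). Leaving out Control RNAi replicate 1 brought that p to 0.0347.

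Irf1, an activator of class I antigen presentation genes, was at 7.22, 6.79 and 6.96 in Control RNAi, at 6.47, 6.67 and 6.67 in NF1 RNAi and at 6.28, 6.40 and 6.53 with U0126. Control arrays were the highest, and the other groups overlapped. The fall with NF1 RNAi was 0.39 ± 0.12 (adjusted p = 0.0366). It was lost without Control RNAi replicate 1 or 3, any NF1 RNAi array or inhibitor replicate 2, with adjusted p up to 0.121, and without Control RNAi replicate 1 the difference was −0.27. With U0126 it lay 0.58 ± 0.12 below Control RNAi (adjusted p = 0.00401), which held without any single array.

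Stat2, the partner of Irf9, was at 8.31, 8.03 and 8.07 in Control RNAi, at 7.95, 7.83 and 7.84 in NF1 RNAi and at 7.95, 7.86 and 7.98 with U0126. The control arrays were again the highest, by a small margin. Its fall was 0.26 ± 0.08 (adjusted p = 0.045). Of the 9 fits that each left out 1 array, the call held in the 1 without Control RNAi replicate 2, and without Control RNAi replicate 1 the difference was −0.18 (adjusted p = 0.0981). The call was also lost under quantile normalization (adjusted p = 0.0776), median centring (0.0598) and a fit of only the compared groups (0.0811). A second Stat2 probe set also moved by −0.26 with NF1 RNAi (adjusted p = 0.0353). That p is adjusted over all probe sets, and so adjusted the first probe set had 0.0558. With U0126 the difference from Control RNAi was −0.21 (adjusted p = 0.0809, and 0.0393 with the replicate block).

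Irf3, the factor that switches on interferon beta after the sensors fire, was the gene that rose. It was at 9.26, 9.82 and 9.99 in Control RNAi, at 10.09, 10.24 and 10.26 in NF1 RNAi and at 10.19, 10.36 and 10.36 with U0126. The control arrays were the lowest, with replicate 1 well under the other controls. Irf3 rose by 0.51 ± 0.16 with NF1 RNAi (adjusted p = 0.0486), a difference of 0.29 (adjusted p = 0.0416) without Control RNAi replicate 1. That call was lost on leaving out Control RNAi replicate 2 or any array of the other groups, with adjusted p up to 0.13. It lay 0.61 ± 0.16 above Control RNAi with U0126 (adjusted p = 0.0172), a difference of 0.40 without Control RNAi replicate 1, and was lost without inhibitor replicate 2 or 3 (adjusted p up to 0.0575).

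Irf7 and Irf8, the other factors, passed in no comparison. Irf7, the amplifier of type I interferon, ran from 5.73 to 6.07 over the 9 arrays, and Irf8, a factor of myeloid cells, from 5.13 to 5.30.

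Of the 4 receptors and kinases, none passed with NF1 RNAi (26.3% of all genes), where none had an unadjusted p under 0.05 in limma. None passed with U0126 added (13.7% of all genes), where 2 had such a p. Jak2, which serves the interferon gamma receptor, was at 7.41, 7.58 and 7.66 in Control RNAi, at 7.65, 7.91 and 7.73 in NF1 RNAi and at 7.89, 7.97 and 8.12 with U0126. The inhibitor arrays lay above all control arrays, with NF1 RNAi between and overlapping both. Jak2 rose by 0.44 ± 0.10 from Control RNAi to the inhibitor group (adjusted p = 0.00685). Ifngr1, the ligand-binding chain of the interferon gamma receptor, was at 10.11, 10.0038 and 10.06 in Control RNAi, at 10.04, 10.0004 and 9.84 in NF1 RNAi and at 9.90, 9.73 and 9.72 with U0126. The inhibitor arrays were below all controls, and Ifngr1 fell by 0.28 ± 0.08 against Control RNAi (adjusted p = 0.0198). That call was lost without Control RNAi replicate 3 or inhibitor replicate 2 or 3, with adjusted p up to 0.0691. Jak1, the kinase of all interferon receptors, ran from 10.89 to 11.13 and Ifnar1, a chain of the type I receptor, from 8.26 to 8.85, and neither passed.

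The 3 sensors passed in no comparison, and none had an unadjusted p under 0.05 in limma. Of all genes, 26.3% passed with NF1 RNAi, 13.7% with U0126 added and 35.5% between the inhibitor group and Control RNAi. Eif2ak2, the RNA-activated kinase that halts translation, ran from 8.87 to 9.16 over the 9 arrays. Ifih1 and Dhx58, helicases that bind viral double-stranded RNA, ran from 4.75 to 5.36 and from 4.32 to 4.62. The probe sets of Dhx58 and B2m are of kinds that may share sequence with other transcripts.

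Among the feedback inhibitors, Socs3, which shuts off gp130 and JAK signalling, was at 6.45, 6.57 and 6.62 in Control RNAi, at 6.28, 6.29 and 6.24 in NF1 RNAi and at 6.35, 6.35 and 6.32 with U0126. The 3 groups did not overlap, with NF1 RNAi the lowest. Socs3 fell by 0.28 ± 0.06 with NF1 RNAi (adjusted p = 0.00802), while the step with U0126 was 0.07 (adjusted p = 0.516). With U0126 it lay 0.21 below Control RNAi (adjusted p = 0.0215), a call lost without Control RNAi replicate 2 or 3 or inhibitor replicate 2 or 3 (adjusted p up to 0.0736). Socs1, which blocks JAK kinases, ran from 6.34 to 6.85, and Usp18, which strips Isg15 from proteins and restrains the type I receptor, from 5.81 to 6.09, and neither passed.

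Of the 8 antigen presentation genes, only Tap1 passed in any comparison. It was the 1 gene called (12.5%) with NF1 RNAi, against 26.3% of all genes. The same 1 was called between the inhibitor group and Control RNAi, against 35.5% of all genes. None of the 8 passed with U0126 added (13.7% of all genes). Tap1, a subunit of the transporter that moves peptides into the endoplasmic reticulum, was at 6.69, 6.26 and 6.26 in Control RNAi, at 5.84, 6.08 and 5.99 in NF1 RNAi and at 6.13, 6.05 and 5.93 with U0126. Control arrays were the highest, Control RNAi replicate 1 most of all. Tap1 fell by 0.43 ± 0.12 with NF1 RNAi (adjusted p = 0.0296), or by 0.29 without Control RNAi replicate 1 (adjusted p = 0.0412), and the call was lost without NF1 RNAi replicate 1 or 3 (adjusted p up to 0.101). With U0126 it lay 0.37 below Control RNAi (adjusted p = 0.0442), a call lost without Control RNAi replicate 1 (difference −0.22, adjusted p = 0.0782), NF1 RNAi replicate 2 or 3, or any inhibitor array. Its other probe set was dim, with means of 4.45 in Control RNAi, 4.41 in NF1 RNAi and 4.52 with U0126. That probe set moved by −0.03 with NF1 RNAi and by 0.07 against Control RNAi with U0126. The probe sets of Tap1 thus differ, and the cause was not tested.

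B2m, the light chain of every class I molecule, ran from 12.66 to 13.21, and its difference with NF1 RNAi was 0.20, with a 95% interval from −0.07 to 0.47. Tap2, the partner of Tap1 in the transporter, ran from 5.43 to 5.67, Tapbp, which bridges the transporter to class I, from 6.99 to 7.34, and the immunoproteasome genes Psmb8, Psmb9 and Psmb10 from 4.94 to 5.44, from 3.71 to 4.44 and from 7.16 to 7.52. Cd74, the invariant chain of class II, ran from 4.65 to 5.06. In the RefSeq gene order Tap2, Psmb8, Tap1 and Psmb9 lie side by side with no other protein-coding gene between. Of the 4, Tap1 alone passed, where 26.3% of all genes passed with NF1 RNAi and 35.5% between the inhibitor group and Control RNAi. Between the inhibitor group and Control RNAi, Psmb10 passed with the replicate block (difference −0.22, adjusted p = 0.0277) and without replicate 1 of all groups (adjusted p = 0.0452).

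**Figure D3:**
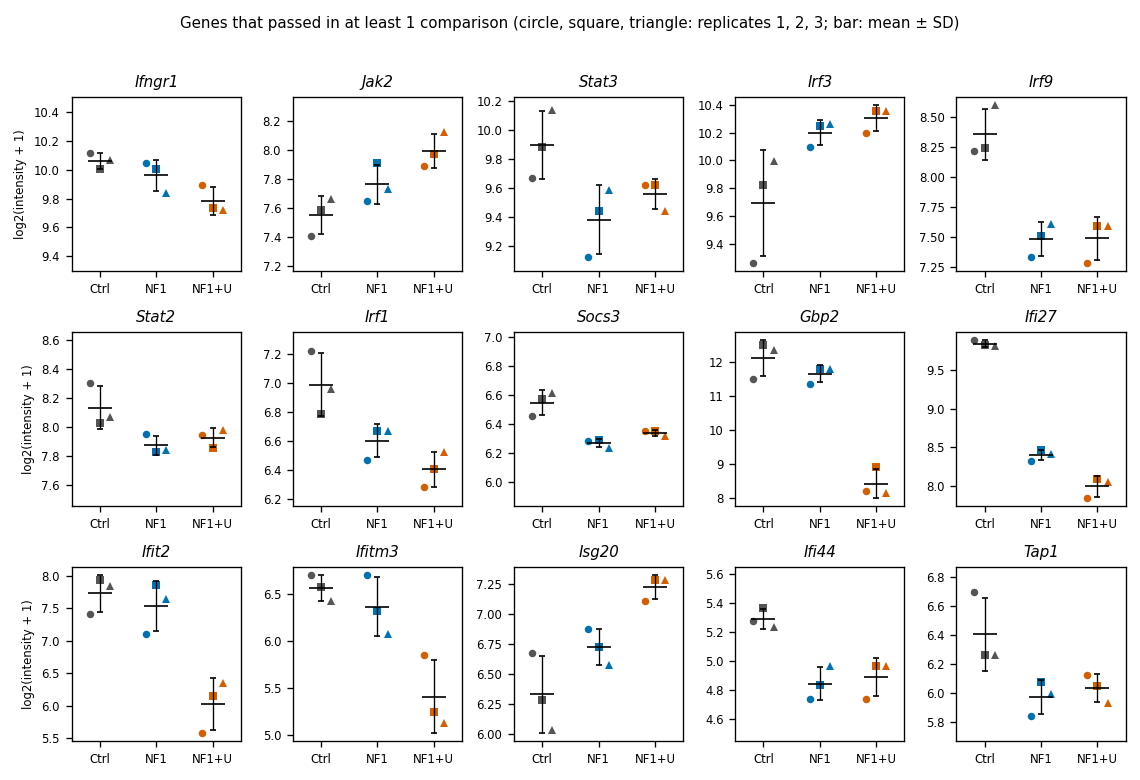
Level in each array of the genes that passed in at least 1 comparison, on the log2(intensity + 1) scale, with a circle, square and triangle for replicates 1, 2 and 3 and bars for the group mean and SD; each panel has its own axis. In Gbp2, Ifit2 and Ifitm3 the separate group is NF1 RNAi with U0126, whereas in Irf9, Ifi44 and Tap1 it is Control RNAi.

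Other genes of the route were taken from a list of 167, of which 122 had a probe set of 1 gene. With NF1 RNAi, 14 rose and 18 fell, with U0126 added 6 rose and 8 fell, and between the inhibitor group and Control RNAi 22 rose and 25 fell. These are 26.2%, 11.5% and 38.5% of the 122, close to the 26.3%, 13.7% and 35.5% of all genes called in the same comparisons. The fold changes had medians of −0.01, 0.02 and 0.00 on the log2 scale. The 8 falls with U0126 became 18 with the replicate block and 13 without Control RNAi replicate 1.

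Among 7 other ligands and receptors, 3 rose with NF1 RNAi (42.9%) and none fell, against 13.0% and 13.3% of all genes. Il10rb, a receptor chain shared with lambda interferons, went from 9.77, 9.74 and 9.73 to 10.81, 10.52 and 10.59, a rise of 0.89 ± 0.08 (adjusted p = 9.42e-05), and Ifngr2, the second chain of the interferon gamma receptor, rose by 0.46 ± 0.11 (adjusted p = 0.0139). Ifnar2, the second chain of the type I receptor, rose by 0.31 ± 0.09 (adjusted p = 0.0275), a call lost without Control RNAi replicate 1 or 2 or NF1 RNAi replicate 1 (adjusted p up to 0.0726). These 3 genes and Ifnar1 lie next to each other in the RefSeq gene order, with no other protein-coding gene between. The 3 rises stood with U0126 too, against Control RNAi, with Ifngr2 at 0.83 above it. None of the 7 passed between the groups with and without U0126 (13.7% of all genes), where 1 had an unadjusted p under 0.05 in limma. Ifnb1 and Ifng, which encode the interferons beta and gamma, were dim at 4.07 to 4.33 and 3.33 to 3.55.

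Of 11 other sensors and adaptors, Tbk1, the kinase that activates Irf3, rose by 0.39 ± 0.09 with NF1 RNAi and Mavs, the mitochondrial adaptor of the RNA sensors, by 0.20 ± 0.06. Trim25, a ubiquitin ligase of the RNA sensors, fell by 0.69 ± 0.17 and Adar, which edits double-stranded RNA, by 0.42 ± 0.10. Against Control RNAi, Sting1, the adaptor of the DNA sensing route, rose by 0.37 ± 0.09 in the inhibitor group. None of the 11 passed between the groups with and without U0126 (13.7% of all genes), where 1 had an unadjusted p under 0.05 in limma. The Mavs call was lost on leaving out Control RNAi replicate 1 or 2 or any NF1 RNAi array (adjusted p up to 0.127), and the Trim25 call without NF1 RNAi replicate 1 (adjusted p = 0.0501).

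Of 12 other JAK, STAT and IRF genes, none passed with NF1 RNAi (26.3% of all genes), where 1 had an unadjusted p under 0.05 in limma. Irf2, which competes with Irf1 for the response element, was at 7.53, 7.54 and 7.59 in Control RNAi, at 7.49, 7.65 and 7.54 in NF1 RNAi and at 6.37, 6.65 and 7.06 with U0126. The inhibitor arrays lay below the other 6, and Irf2 fell by 0.87 ± 0.15 with U0126 (adjusted p = 0.0049). Jak3, the kinase of the common gamma chain, rose by 0.29 ± 0.07 with U0126, a call lost without NF1 RNAi replicate 1 or 2 or inhibitor replicate 3 (adjusted p up to 0.0662).

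Of 13 other feedback inhibitors, Socs2, a brake on growth hormone signalling, was at 7.08, 7.04 and 7.14 in Control RNAi, at 7.78, 7.80 and 7.78 in NF1 RNAi and at 6.87, 7.05 and 6.80 with U0126. NF1 RNAi arrays stood above all others, with a rise of 0.70 ± 0.07 (adjusted p = 0.000238) and a fall of 0.88 ± 0.07 when U0126 was added (adjusted p = 0.000164). Socs5 went from 12.09, 12.19 and 12.09 in NF1 RNAi to 10.35, 10.95 and 10.95 with U0126, a fall of 1.37 ± 0.16 (adjusted p = 0.000725). Pias2, a SUMO ligase that binds STAT proteins, rose by 0.29 ± 0.06 with NF1 RNAi and by a further 0.27 ± 0.06 with U0126, the latter lost without NF1 RNAi replicate 2 or inhibitor replicate 2 or 3 (adjusted p up to 0.0596). Socs7 rose by 0.60 ± 0.13 with NF1 RNAi (adjusted p = 0.00776).

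Among 40 other interferon-induced genes, 5 fell and 1 rose with U0126, together 15.0% against 13.7% of all genes. Gbp4, which lies beside Gbp2 in the gene order, was at 9.31, 9.67 and 9.29 in Control RNAi, at 10.41, 9.61 and 9.31 in NF1 RNAi and at 8.70, 7.11 and 6.46 with U0126. The inhibitor arrays were the lowest but spread widely, and Gbp4 fell by 2.35 ± 0.51 (adjusted p = 0.016), a call lost without NF1 RNAi replicate 1 or 2 or inhibitor replicate 2 (adjusted p up to 0.0647). Dtx3l, Parp9 and Parp14, which encode a ubiquitin ligase and ADP-ribosyltransferases, are adjacent genes and all fell. Dtx3l went from 5.76, 6.16 and 5.92 in NF1 RNAi to 4.79, 5.16 and 5.10, a fall of 0.93 ± 0.13 (adjusted p = 0.00206). Parp9 fell by 0.64 ± 0.12 (adjusted p = 0.00853) and Parp14 by 0.39 ± 0.07 (adjusted p = 0.00626). Parp12 fell by 0.45 ± 0.13 (adjusted p = 0.0455), a call lost on leaving out any of 7 arrays (adjusted p up to 0.149), all but Control RNAi replicate 1 and NF1 RNAi replicate 1. The gene that rose was Ifi30, a lysosomal thiol reductase of antigen processing, by 0.28 ± 0.06 (adjusted p = 0.021), a call lost without any NF1 RNAi array or inhibitor replicate 1 or 2 (adjusted p up to 0.0791).

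**Figure D4:**
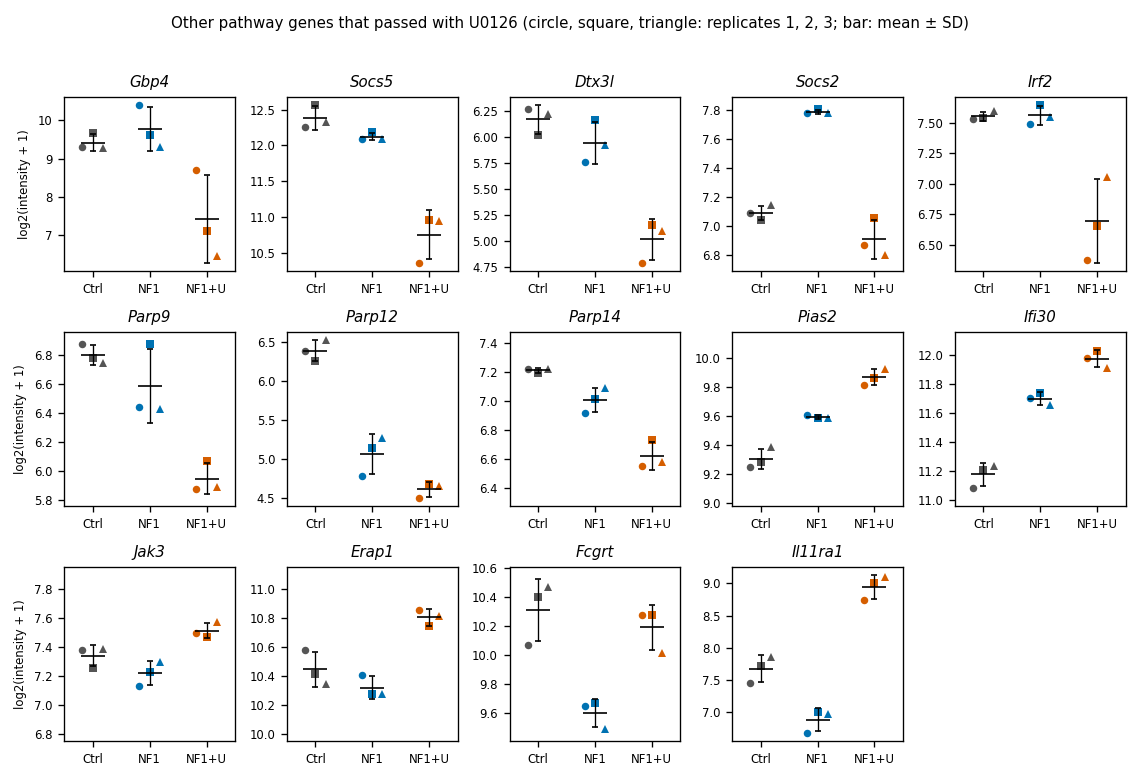
Level in each array of the 14 other genes of the route that passed with U0126 (NF1 RNAi + U0126 against NF1 RNAi), on the log2(intensity + 1) scale, with a circle, square and triangle for replicates 1, 2 and 3 and bars for the group mean and SD; each panel has its own axis. In 8 panels, Gbp4 and Socs5 among them, the inhibitor group lies below NF1 RNAi, and in 6, with Il11ra1 the farthest, it lies above.

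With NF1 RNAi, 6 of these 40 induced genes fell (15.0%) and 2 rose (5.0%), against 13.3% and 13.0% of all genes. Parp12 went from 6.39, 6.26 and 6.53 in Control RNAi to 4.78, 5.14 and 5.27, a fall of 1.33 ± 0.13 (adjusted p = 0.000155). Irgm2, a GTPase of the interferon gamma response, went the other way, from 9.30, 9.42 and 9.52 to 10.98, 10.72 and 10.57, a rise of 1.34 ± 0.13 (adjusted p = 0.000175). Both groups were apart in each of these genes. Lgals3bp, a secreted galectin-binding protein, fell by 0.9994 ± 0.22 (adjusted p = 0.00965), and Ifitm2 by 1.09 ± 0.32 (adjusted p = 0.0338), the latter lost without Control RNAi replicate 1 or 2, NF1 RNAi replicate 2 or 3 or inhibitor replicate 2 (adjusted p up to 0.117). Between the inhibitor group and Control RNAi, 14 of the 40 fell (35.0%) and 5 rose (12.5%), against 17.6% and 17.9% of all genes, with Gbp4 at −2.00, Parp12 at −1.79, Casp4, an inflammatory caspase, at −1.25 and Ifitm2 at −1.24.

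Of 17 other class I pathway genes, 6 fell (35.3%) and 3 rose (17.6%) with NF1 RNAi, against 13.3% and 13.0% of all genes. RT1-M3-1, a nonclassical rat class I gene, went from 8.45, 8.24 and 8.28 in Control RNAi to 6.81, 7.06 and 7.03, a fall of 1.36 ± 0.13 (adjusted p = 0.000143), and RT1-N3 fell by 0.92 ± 0.08 (adjusted p = 9.89e-05). RT1 genes are near copies of each other, so their probe sets may read more than 1 of them. Mr1 and Cd1d1, which present vitamin metabolites and lipids, rose by 0.96 ± 0.16 (adjusted p = 0.00227) and 0.81 ± 0.17 (adjusted p = 0.00838). With U0126 added, 2 rose and none fell, 11.8% called against 13.7% of all genes. Fcgrt, the neonatal Fc receptor, was at 10.07, 10.40 and 10.47 in Control RNAi, at 9.65, 9.67 and 9.49 in NF1 RNAi and at 10.28, 10.28 and 10.02 with U0126, so that the inhibitor arrays overlapped with the controls. Its rise with U0126 was 0.59 ± 0.12 (adjusted p = 0.0113), and Erap1, which trims peptides for class I, rose by 0.48 ± 0.08 (adjusted p = 0.00366).

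Of 9 class II pathway genes, Lgmn, a lysosomal protease, rose by 0.73 ± 0.15 with NF1 RNAi. RT1-Db1, a class II beta chain, fell by 0.65 ± 0.09. None of the 9 passed with U0126 added (13.7% of all genes), where none had an unadjusted p under 0.05 in limma. Of the constitutive proteasome subunits that Psmb8, Psmb9 and Psmb10 replace, 2 were measured, and Psmb5 fell by 0.28 ± 0.06 with NF1 RNAi. Of 11 genes of the gp130 route, which also signals through Stat3 and Socs3, Il11ra1, the receptor of interleukin 11, was at 7.45, 7.72 and 7.86 in Control RNAi, at 6.68, 7.01 and 6.98 in NF1 RNAi and at 8.74, 9.002 and 9.10 with U0126. The 3 groups did not overlap. NF1 RNAi came with a fall of 0.79 ± 0.14 (adjusted p = 0.00316), and Il11ra1 rose by 2.06 ± 0.14 with U0126 (adjusted p = 6.71e-05). Il6st, which encodes gp130 itself, fell by 0.77 ± 0.18 with NF1 RNAi (adjusted p = 0.0112).

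Markers of other cells were read beside these results. Of 15 macrophage markers, all measured, 1 rose with NF1 RNAi (Laptm5) and 1 with U0126 added (Cd68), each 6.67%. Between the inhibitor group and Control RNAi 4 rose (26.7%) and none fell. The largest of these differences was 1.07, and 2 of the 15 were below 0. Over all genes, 13.0% rose and 13.3% fell with NF1 RNAi, and 6.71% and 7.02% with U0126 added. Between the inhibitor group and Control RNAi these shares were 17.9% and 17.6%. The summed intensity of the 15 macrophage markers was 570 to 619 in Control RNAi, 653 to 666 in NF1 RNAi and 692 to 760 with U0126. Among them, Ptprc and Csf1r were dim at 4.28 to 4.70 and 4.03 to 4.62. None of 8 lymphocyte markers passed, with none at an unadjusted p under 0.05 in limma. Of 6 dendritic cell markers, Batf3 rose with NF1 RNAi and, against Control RNAi, with U0126, where Itgae fell. Of 12 fibroblast markers, with summed intensities of 48069 to 54624, 42716 to 50204 and 31101 to 45594 in the same order of groups, 1 rose and 2 fell with NF1 RNAi, 1 rose and 1 fell with U0126 added, and 1 rose and 4 fell between the inhibitor group and Control RNAi. Of 9 endothelial and mural markers, Acta2 alone passed, lower with NF1 RNAi. The gap between the 3′ and 5′ control probe sets of beta-actin, a sign of RNA integrity, was 0.90, 0.62 and 0.60 in Control RNAi, 0.78 to 0.85 in NF1 RNAi and 0.85 to 0.87 with U0126. For Gapdh the gap was 0.06, −0.06 and −0.11 in Control RNAi, −0.10 to −0.02 in NF1 RNAi and −0.06 to −0.05 with U0126. The part of these values in the results was not tested.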

How the data were processed

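Total RNA of 9 cultures was measured on 9 rat Affymetrix arrays, 3 per group as the labels give them. The authors made 1 linear intensity per probe set and array with RMA per the submitters' processing notes, with the program unnamed there. The deposited intensities run from 5.62 to 25800.2, and log2(value + 1) was taken, which understates changes of dim probe sets. Such a summary pulls arrays toward 1 distribution, so a change shared by most genes would not show.

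Of 31099 probe sets, 57 controls were left out. The platform annotation listed a single gene for 20826, more than 1 for 436 and no gene for 9780, and only the first kind was used. Symbols were updated through RefSeq gene IDs of GRCr8 for 20758 probe sets, through an accession for 2 and an older symbol for 9, and 57 were kept. Each of 14213 genes was read from its probe set with the highest mean, 4526 of them having several. No genome build for the probe sets was named, so no gene coordinates are printed.

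A linear model with 1 mean per group was fitted to all 9 arrays (limma 3.58.1, R 4.3.3, moderated by eBayes, 6 residual degrees of freedom). P-values were adjusted over all genes by Benjamini-Hochberg, with a threshold of 0.05. Those of second probe sets were adjusted over all probe sets. On simulated data for NF1 RNAi against Control RNAi over 14213 genes, the same code recovered 66% of genes changed by 0.5 and 94% of genes changed by 1 on the log2 scale. Of the calls on simulated data, 5.88% were of unchanged genes. The simulated arrays varied independently and few genes were changed, unlike in the measured arrays, so these rates need not hold for them. Arrays give no read depth, and their number limits the precision. The replicate numbers were taken as a possible pairing of the arrays, and the main fit leaves them out. Deviations from the group means correlated in all 9 same-number pairs (r from 0.17 to 0.62 across genes), against −0.52 to 0.40 in 18 other pairs. Replicates 2 and 3 of different groups also correlated. NF1 RNAi replicate 3 had r of 0.40 with inhibitor replicate 2 and 0.34 with inhibitor replicate 3. The values thus set replicate 1 apart and do not settle how replicates 2 and 3 pair. The blocked fit is given where it changes a call.

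Members and lists were chosen with earlier results of these data known. All members are described, those past the threshold with every array, and up to 4 passing genes per other list and comparison with the largest fold changes. Alternatives were quantile normalization, median centring, a pseudocount of 16, a filter at log2 6 in 3 arrays, all probe sets averaged, only the compared groups, the block and single arrays left out. Those for the other genes of the route were added after seeing the data.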

Additional observations from a re-analysis of the deposited data

How the results depend on the processing

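No change of setting turned the direction of any call among the 40 genes. The 8 falls with NF1 RNAi became 4 when only the compared groups were fitted and 5 without replicate 1 of all groups, and ran from 4 to 7 with single arrays left out. The 1 rise became 0 under quantile normalization, under a pseudocount of 16 and with only the compared groups, and 2 without replicate 1 of all groups (0 to 2 with single arrays left out). The count of rises with U0126 added, 0, became 1 under the replicate block, the filter, quantile normalization, only the compared groups and without replicate 1 of all groups (0 to 1). The 3 rises between the inhibitor group and Control RNAi became 5 without replicate 1 of all groups. For the other genes of the route with U0126 added, the 8 falls became 18 with the replicate block and 16 without replicate 1 of all groups (6 to 13 with single arrays left out), and the 6 rises ran from 3 to 8. Over all genes, the 953 rises with U0126 ran from 578 without NF1 RNAi replicate 2 to 1253 without Control RNAi replicate 1, and the 998 falls from 532 to 1334 on leaving out the same arrays. In all other counts the remaining settings stayed within 1.5 times. Averaging all probe sets, which brings in the dim second probe set of Tap1, ended both calls of that gene. These were with NF1 RNAi (difference −0.23, adjusted p = 0.0948, limma) and between the inhibitor group and Control RNAi (difference −0.15, adjusted p = 0.241). The cause was not tested.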
